A study of Homo sapiens with 24 samples.

Results

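The genes described here are the nuclear-encoded subunits of the mitochondrial respiratory chain and ATP synthase. They were chosen by name from the protein-coding genes of the 72 h table: symbols beginning NDUFA, NDUFB, NDUFC, NDUFS or NDUFV with a digit (complex I), SDHA to SDHD (complex II), symbols beginning UQCR (complex III), COX4 to COX8 (complex IV) and ATP5 (complex V). The rule found 89 genes among the 19836 of that table, with 39 in complex I, 5 in complex II, 9 in complex III, 17 in complex IV and 19 in complex V, and all 89 gene ids were also in the 48 h table. Current symbols are used, as in the 48 h table, so that ATP5MC2 stands for the older ATP5G2 of the 72 h table.

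The libraries came from U2932, a human line of diffuse large B-cell lymphoma, sequenced after reagents directed at the oncogene MYC. The reagent named PNA2 belongs to the gamma peptide nucleic acids, synthetic strands that pair with DNA or RNA and have a pseudopeptide in place of the sugar-phosphate backbone, and was given at a labelled dose of 8 mM whose unit is doubtful. The siRNA was given at 500 nM by electroporation, and the controls received PBS without a stated electroporation, so a difference of the siRNA libraries from control holds any effect of that step. At 48 h there were 6 libraries of control cells, 4 of PNA2 and 4 of siRNA, and at 72 h there were 5 of control cells and 5 of PNA2. The cell line entry read U2932 for 20 of the 24 libraries, and differed in its last digit in each siRNA library. The extraction text named 48 h even for the libraries whose titles and time entries give 72 h. The labels do not say whether replicates were separate cultures, so p-values measure only the spread between these libraries, which may be technical.

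The respiratory chain passes electrons from NADH (complex I) and succinate (complex II) through ubiquinone, complex III, cytochrome c and complex IV to oxygen, and the proton gradient so built drives ATP synthase (complex V). Its subunits come from both genomes. The mitochondrial genome encodes a few hydrophobic core subunits, while all others, and the whole of complex II, are encoded in the nucleus, translated in the cytosol and imported. The nuclear regulators known as nuclear respiratory factors, NRF1 and the ETS protein GABP, bind the promoters of many of these genes.

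Promoters of 67 of the 89 genes were found by symbol in a RefSeq table (GRCh38.p14). In the 250 bases before the start, the NRF1 motif (GCGCA, any base, then GCGC) stood on either strand in 14 of the 67 (20.9%), against 5.53% of all 27305 promoters and 11.1% of the 9726 promoters of genes tested at 72 h. The ETS motif CCGGAAG, to which GABP binds, stood in 16 (23.9%), against 8.82% and 16.8%. In 64 promoters of cytoplasmic ribosomal protein genes the ETS motif stood in 28.1% and the NRF1 motif in 9.38%. The YY1 motif AANATGGCG stood in 2 (2.99%, against 1.40% of all promoters and 2.43% of those tested). The E-box CACGTG, the motif of MYC, stood in 6 (8.96%, against 6.49% of all and 9.11% of those tested). These are matches of letters and not measured binding. Among the members called higher at 72 h (results below), 9 of 32 promoters held the NRF1 motif and 11 the ETS motif, against 4 and 5 of 30 for members tested and not called. No test was made of that difference.

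The windows below show how the matches lie in the promoters of 6 genes that rose at 72 h and of SDHA, which was not called and whose window holds the NRF1 motif repeatedly. Each is the 120 bases before the RefSeq start, read in the direction of transcription, in lower case, with NRF1 and ETS motifs on either strand in capitals.
NDUFA3, complex I (chr19:54102735-54102854, forward strand): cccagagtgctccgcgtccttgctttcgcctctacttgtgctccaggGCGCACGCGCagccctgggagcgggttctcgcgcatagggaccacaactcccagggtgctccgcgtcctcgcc
UQCRFS1, complex III (chr19:29213152-29213271, reverse strand): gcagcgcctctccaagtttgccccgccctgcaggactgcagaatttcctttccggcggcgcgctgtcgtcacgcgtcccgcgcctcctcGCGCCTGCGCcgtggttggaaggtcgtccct
UQCR11, complex III (chr19:1605463-1605582, reverse strand): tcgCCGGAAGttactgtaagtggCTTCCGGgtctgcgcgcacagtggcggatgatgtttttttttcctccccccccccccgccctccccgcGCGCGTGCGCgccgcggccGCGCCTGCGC
COX6B1, complex IV (chr19:35648203-35648322, forward strand): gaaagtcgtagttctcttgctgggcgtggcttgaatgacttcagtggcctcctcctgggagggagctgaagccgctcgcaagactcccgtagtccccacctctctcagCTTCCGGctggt
COX6A1, complex IV (chr12:120437993-120438112, forward strand): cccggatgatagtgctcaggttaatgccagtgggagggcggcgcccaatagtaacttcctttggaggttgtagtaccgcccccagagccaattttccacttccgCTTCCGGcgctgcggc
ATP5PO, complex V (chr21:33915805-33915924, reverse strand): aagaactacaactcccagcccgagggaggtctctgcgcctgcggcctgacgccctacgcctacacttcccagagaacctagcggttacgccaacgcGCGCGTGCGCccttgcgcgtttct
SDHA, complex II (chr5:218200-218319, forward strand): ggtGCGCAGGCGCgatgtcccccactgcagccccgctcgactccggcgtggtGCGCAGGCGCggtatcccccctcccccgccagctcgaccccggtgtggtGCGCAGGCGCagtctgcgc
The NRF1 match is centred 26 bases before the start in UQCRFS1 and 19 bases before it in ATP5PO, and the ETS match 9 bases before it in COX6B1 and 13 in COX6A1.

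Values at 72 h are the authors' read counts divided by a size factor per library, and 48 h values are the authors' batch-adjusted read counts, here divided by a library scale (TMM), so levels are called scaled reads and are not compared between the tables unless stated. Totals were 8.22 M to 13.69 M reads per library at 72 h and 11.12 M to 16.17 M adjusted reads at 48 h. The 48 h libraries fall into 2 batches read from tied values, A (3 control, 2 PNA2 and all 4 siRNA libraries) and B (3 control and 2 PNA2). MYC itself was lower in the siRNA libraries (log2 change -0.82, SE 0.11, limma adjusted p = 0.000396) and was not called in the libraries labelled PNA2 at 48 h (0.24, SE 0.10, adjusted p = 0.114) or at 72 h (-0.18, SE 0.45, adjusted p = 0.794). The B cell markers, among them MS4A1, CD79A, CD79B and PAX5, summed to 0.191% to 0.329% of the totals, and none of them was at 0 in every library of a group. T and NK cell markers summed to at most 0.000556% and myeloid markers to at most 0.000403%.

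At 72 h, respiratory chain transcripts were higher in the libraries labelled PNA2. Of the 89 genes, 81 passed the filter on low values (10 or more in at least 5 libraries), and 40 of the 81 were higher and 0 lower at a limma adjusted p below 0.05 over all genes tested (54 had an unadjusted p below 0.05). Among all 11985 genes tested 12.1% were called higher and 11.7% lower. The 8 that did not pass were 6 isoforms of complex IV named below, the readthrough gene NDUFC2-KCTD14 and ATP5MGL. The median log2 change of the tested members was 0.31, against -0.01 for all genes. The groups did not overlap, with all 5 PNA2 libraries above all 5 controls, in 33 of the 81, against 10.0% of all genes, and lay wholly below them in 0 of the 81, against 9.18%. A count model on the reads recovered from the table (edgeR) also called 40 higher and 0 lower, and DESeq2 called 46 and 0. These counts were not set against the share of all genes that each tool called. The summed B cell markers moved with the groups at 72 h too, from 0.209% to 0.223% of the totals in control and 0.236% to 0.265% in PNA2. Of the 7 markers 2 were called higher, 1 lower and 4 neither, and their part in the result was not tested. In bulk RNA a higher share of these transcripts and fewer other transcripts per cell cannot be told apart.

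**Figure D1:**
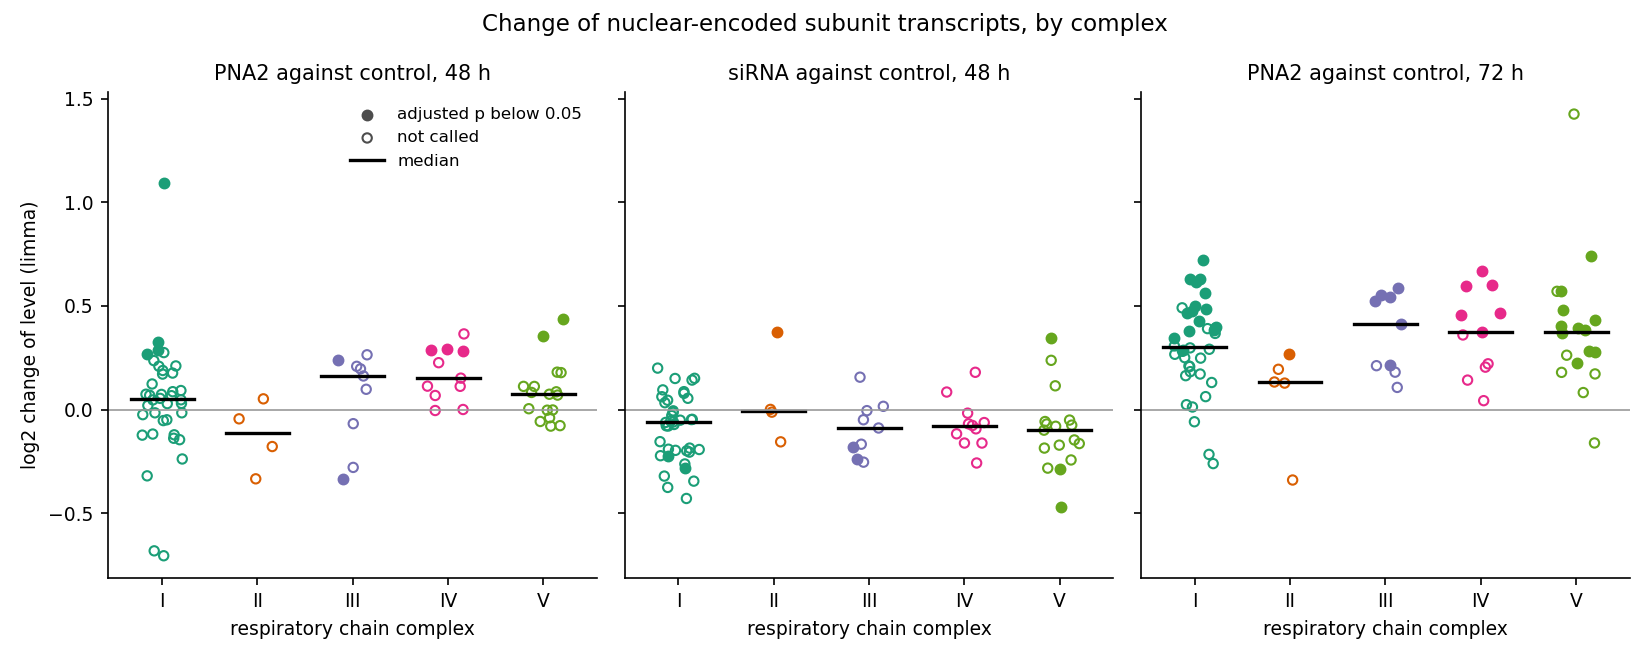
Log2 change of each tested member (vertical axis) by complex (horizontal axis) in the 3 comparisons with control. Filled points have a limma adjusted p below 0.05, open points do not, and bars are medians. At 72 h the filled points, 40 in all, lie above 0, while at 48 h most points are open.

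The increase at 72 h was seen in every PNA2 library, to unequal degrees. The median difference of the members from the control mean was 0.38, 0.34, 0.56, 0.17 and 0.20 (log2) in PNA2 replicates 1 to 5, and between -0.07 and 0.06 in the controls. In each PNA2 library between 66 and 76 of the 81 members lay above the control mean. Summed, the 89 genes made up 1.02% ± 0.0362 (SD, n = 5) of a control library's total, with single values from 0.976% to 1.07%. In PNA2 replicates 1 to 5 they made up 1.16%, 1.20%, 1.37%, 1.11% and 1.08%, with a mean of 1.18% ± 0.114 (SD, n = 5). The lowest PNA2 library, replicate 5, stood just above the highest control, replicate 3. The summed share of complex I went from 0.327% ± 0.0114 to 0.374% ± 0.0348 (SD, n = 5 each) and that of complex V from 0.352% ± 0.0161 to 0.401% ± 0.0423. The share of complex IV went from 0.177% ± 0.0101 to 0.219% ± 0.0261, that of complex III from 0.111% ± 0.00193 to 0.133% ± 0.0113 and that of complex II from 0.0533% ± 0.00182 to 0.0548% ± 0.00163 (SD, n = 5 each). The ranges overlapped in complexes II and V and did not in complexes I, III and IV.

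**Figure D2:**
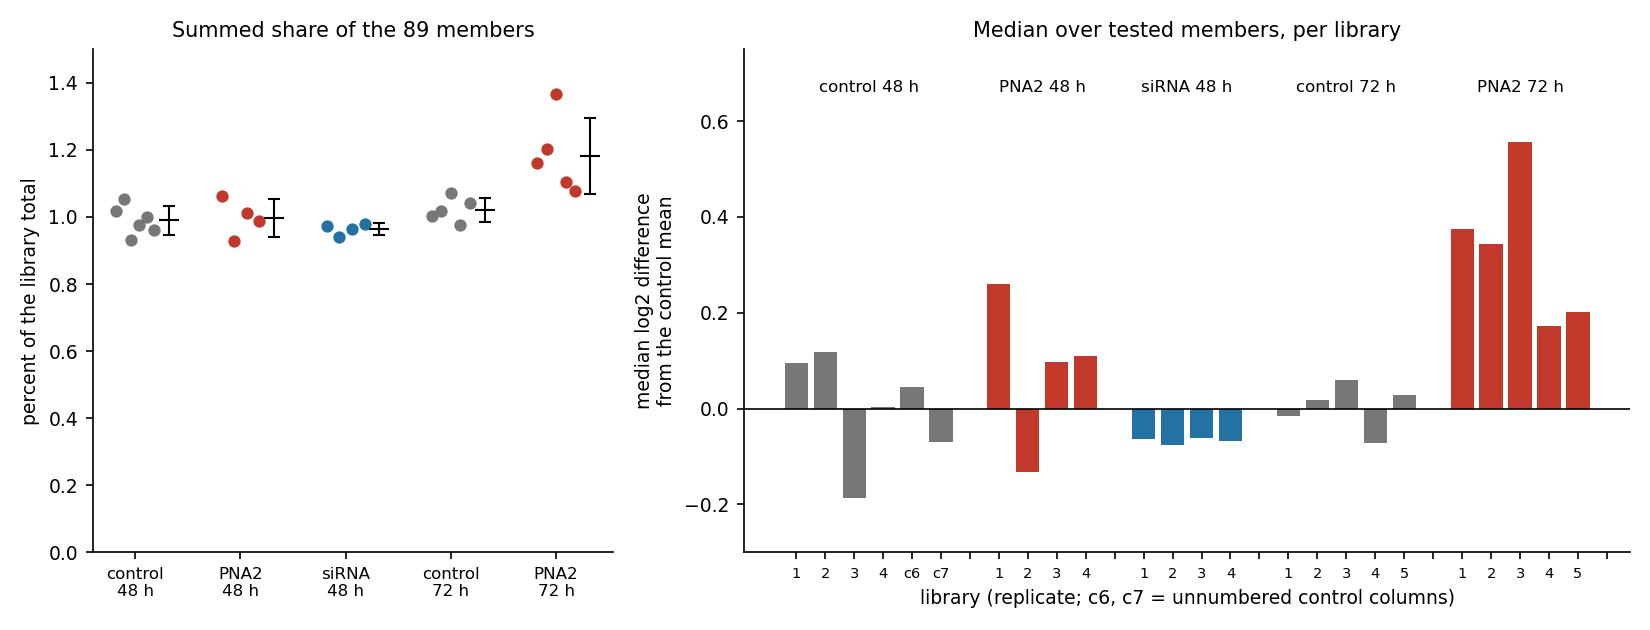
Left, the summed share of the 89 members in each library's total (percent), by group, with mean and SD (48 h totals hold all gene types, 72 h totals protein-coding genes only). Right, the median log2 difference of the tested members from the control mean of the same table, a bar per library, with replicate numbers on the horizontal axis. All 5 PNA2 bars at 72 h are above 0. At 48 h PNA2 replicate 2 is below 0 (-0.13) and control replicate 3 is further below (-0.19).

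Complex I, the entry point for electrons from NADH, had 16 of 38 tested members higher, with a median log2 change of 0.30. NDUFA2 (ENSG00000131495; GRCh38 chromosome 5, 140638740 to 140647785, reverse strand), an accessory subunit, had the largest change of the complex. It stood at 653, 809, 1004, 678 and 925 scaled reads in control replicates 1 to 5 and at 1413, 1449, 1702, 971 and 1197 in PNA2 replicates 1 to 5. PNA2 replicate 4 lay below control replicate 3, so the groups overlapped. Its mean went from 814 ± 152 (SD, n = 5) to 1347 ± 276 (n = 5), a log2 change of 0.72 (SE 0.16, 95% CI 0.37 to 1.07, limma adjusted p = 0.0087). NDUFB11, a membrane arm subunit encoded on the X chromosome, stood at 1253, 1232, 1393, 1329 and 1367 in the controls and 2096, 2122, 2546, 1691 and 1809 in PNA2, without overlap. It changed by 0.63 (SE 0.10, adjusted p = 0.00208). NDUFA3, a small membrane subunit, stood at 492, 591, 547, 477 and 554 in the controls and 839, 801, 999.6, 718 and 735 in PNA2, a change of 0.61 (adjusted p = 0.00226), again without overlap. NDUFA13, also known as GRIM-19, changed by 0.63 with overlapping groups (adjusted p = 0.0343).

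Within complex I the calls were spread unevenly over the subunit families. Of the NDUFA genes 8 of 14 were higher, and of the NDUFB genes 6 of 11, both families made up of accessory subunits. Of the NDUFS and NDUFV genes, which include the catalytic core with its iron-sulfur clusters, 2 of 11 were higher, and no test of this difference between families was made. NDUFS1, the largest core subunit, stood at 1656, 1589.6, 1461, 1577 and 1527 in the controls and 1536, 1684, 1394, 1738 and 1603 in PNA2, interleaved, and its change was 0.02 (95% CI -0.13 to 0.18). NDUFV1, which binds NADH, gave 0.06 (95% CI -0.19 to 0.32). NDUFS5, an accessory subunit, rose (0.43, adjusted p = 0.0114). Of the 38 members, 3 had a negative estimate (NDUFA5, NDUFA10 and NDUFB4) and none of these was called, with -0.22 for NDUFA10 (adjusted p = 0.0969) and -0.26 for NDUFA5 (adjusted p = 0.151). NDUFB9, an accessory subunit of the membrane arm, gave 0.28 (adjusted p = 0.293).

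NDUFA4, named as a complex I subunit but since assigned to complex IV, stood at 2625, 2708, 2731, 2415 and 2682 in the controls and 3539, 3998, 4469, 3271 and 3078 in PNA2. It rose by 0.47 on the log2 scale (SE 0.10, adjusted p = 0.0061), without overlap. Its paralog NDUFA4L2, known as a target of hypoxia-inducible factor, was scarce, at 33.6 ± 11.8 in the controls and 37.7 ± 9.4 in PNA2 (SD, n = 5 each), and was not called (0.18, adjusted p = 0.661).

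Complex II, succinate dehydrogenase, had 1 of 5 tested gene ids higher, and the median log2 change was 0.13. SDHB, its iron-sulfur subunit, stood at 1043, 887, 982, 928 and 855 in the controls and 1139, 1115, 1228, 1101 and 1059 in PNA2, a rise of 0.27 (SE 0.07, adjusted p = 0.0231) with no overlap. SDHA, the flavoprotein that oxidises succinate, stood at 2100.5 ± 214 and 2289 ± 143 (SD, n = 5 each), a change of 0.13 (95% CI -0.05 to 0.30). The membrane anchors SDHC and SDHD gave 0.13 and 0.19 (adjusted p = 0.133 and 0.0807). The fifth id is a second, low gene of symbol SDHD in the table, with a control mean of 12.4 ± 6.49 (SD, n = 5), and was not called.

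In complex III, which passes electrons from ubiquinol to cytochrome c, 6 of 9 members were higher, with a median change of 0.41 and no overlap between groups in any of the 6. UQCRFS1, the Rieske iron-sulfur protein (ENSG00000169021; chromosome 19, 29205321 to 29213541, reverse strand), stood at 1199, 1155, 1212, 1141 and 1205 in the controls and 1799, 1736, 2006, 1527 and 1581 in PNA2. Its mean went from 1182 ± 32.2 to 1729.8 ± 189.8 (SD, n = 5 each), a rise of 0.54 on the log2 scale (SE 0.08, adjusted p = 0.00131), and the lowest PNA2 library lay clear of the highest control. UQCRC1, a core subunit, stood at 1567, 1680.0, 1669, 1582 and 1589 in the controls and 2364, 2203, 2259, 2139.9 and 1845 in PNA2, a rise of 0.41 (SE 0.07, adjusted p = 0.00286). UQCR11, the smallest subunit, stood at 1630.4, 1599, 1615, 1377 and 1611 in the controls and 2445, 2289, 3093, 2047 and 2018 in PNA2, a rise of 0.59 (SE 0.11, adjusted p = 0.0041). UQCR10, UQCRQ and UQCRB, small subunits, rose by 0.55, 0.52 and 0.21. The other core subunit, UQCRC2, gave 0.18 (adjusted p = 0.0516) and the hinge protein UQCRH 0.21 (adjusted p = 0.12), and neither was called.

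In complex IV, cytochrome c oxidase, 11 of 17 genes passed the filter and 6 of these were higher, with a median change of 0.38. The 6 that did not pass were COX4I2, COX6A2, COX6B2, COX7A1, COX7B2 and COX8C, which are isoforms known mainly from other tissues such as muscle, lung or testis, and all were at 0 in all 72 h libraries. COX6B1 (ENSG00000126267; chromosome 19, 35648223 to 35658861, forward strand), which faces the intermembrane space, stood at 2128, 2202, 2191, 1867 and 2149.6 in the controls and 3441, 3410.2, 4369, 2784 and 2911 in PNA2. It rose from 2107 ± 138 to 3383 ± 624 (SD, n = 5 each), a log2 change of 0.67 (SE 0.11, adjusted p = 0.00234), with the lowest PNA2 library well above the highest control. COX6A1, a regulatory subunit, stood at 2969, 3124, 2939.7, 2647 and 2782 in the controls and 4563, 4690.4, 5427, 3602 and 3882 in PNA2, a rise of 0.60 (adjusted p = 0.00263). COX8A, COX5A, COX7A2 and COX5B were the other 4 that rose, by 0.59, 0.46, 0.46 and 0.38. COX4I1, the subunit at which ATP is known to regulate the enzyme, varied widely, at 2526, 2362, 3306, 1956 and 2819 in the controls and 3257, 3129, 4453, 2611 and 3196 in PNA2, and its change of 0.36 was not called (adjusted p = 0.109). COX7C did not differ beyond its spread (0.04, 95% CI -0.23 to 0.32), and COX6C gave 0.20 (adjusted p = 0.157).

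Of the genes that the naming rule puts in ATP synthase, 11 of 18 tested were higher, with a median change of 0.38. The 18 were taken by symbol alone, and include DMAC2L, ATP5F1EP2 and the readthrough gene ATP5MF-PTCD1, none of which was called. ATP5PO (ENSG00000241837; chromosome 21, 33903453 to 33915980, reverse strand), a subunit of the peripheral stalk also called OSCP, had the largest called change of all 81 members. It stood at 1447, 1819.8, 1487, 2122 and 2137 in the controls and 3138, 2179, 3895, 2851 and 3056 in PNA2, with the lowest PNA2 library, replicate 2, just above the highest control, and changed by 0.74 (SE 0.16, 95% CI 0.40 to 1.08, adjusted p = 0.00682). In the catalytic F1 head the alpha and beta subunits, ATP5F1A and ATP5F1B, were the most abundant members by scaled reads, at 9872 ± 1264 and 5914 ± 1105 in the controls (SD, n = 5 each), and gave 0.17 (95% CI -0.11 to 0.46) and 0.18 (95% CI -0.13 to 0.49), neither called. The gamma, delta and epsilon subunits, ATP5F1C, ATP5F1D and ATP5F1E, rose by 0.22, 0.57 and 0.38 (adjusted p = 0.0357, 0.012 and 0.0134), and no difference between subunits was tested.

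The c ring, the rotor of the enzyme, is made from 3 genes that encode an identical mature protein. ATP5MC1 and ATP5MC3 rose by 0.40 and 0.37 (adjusted p = 0.0252 and 0.00899). ATP5MC2 had the larger estimate, 0.57, but was not called (adjusted p = 0.0654). Its PNA2 libraries stood at 1881, 2917, 3475, 1617 and 1697, so that replicates 2 and 3 were far above and replicates 4 and 5 within the control range of 1239, 1321, 1807, 1634 and 1499.6. The largest estimate of all, 1.43 for the readthrough gene ATP5MF-PTCD1, had an SE of 0.71 and was not called.

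**Figure D3:**
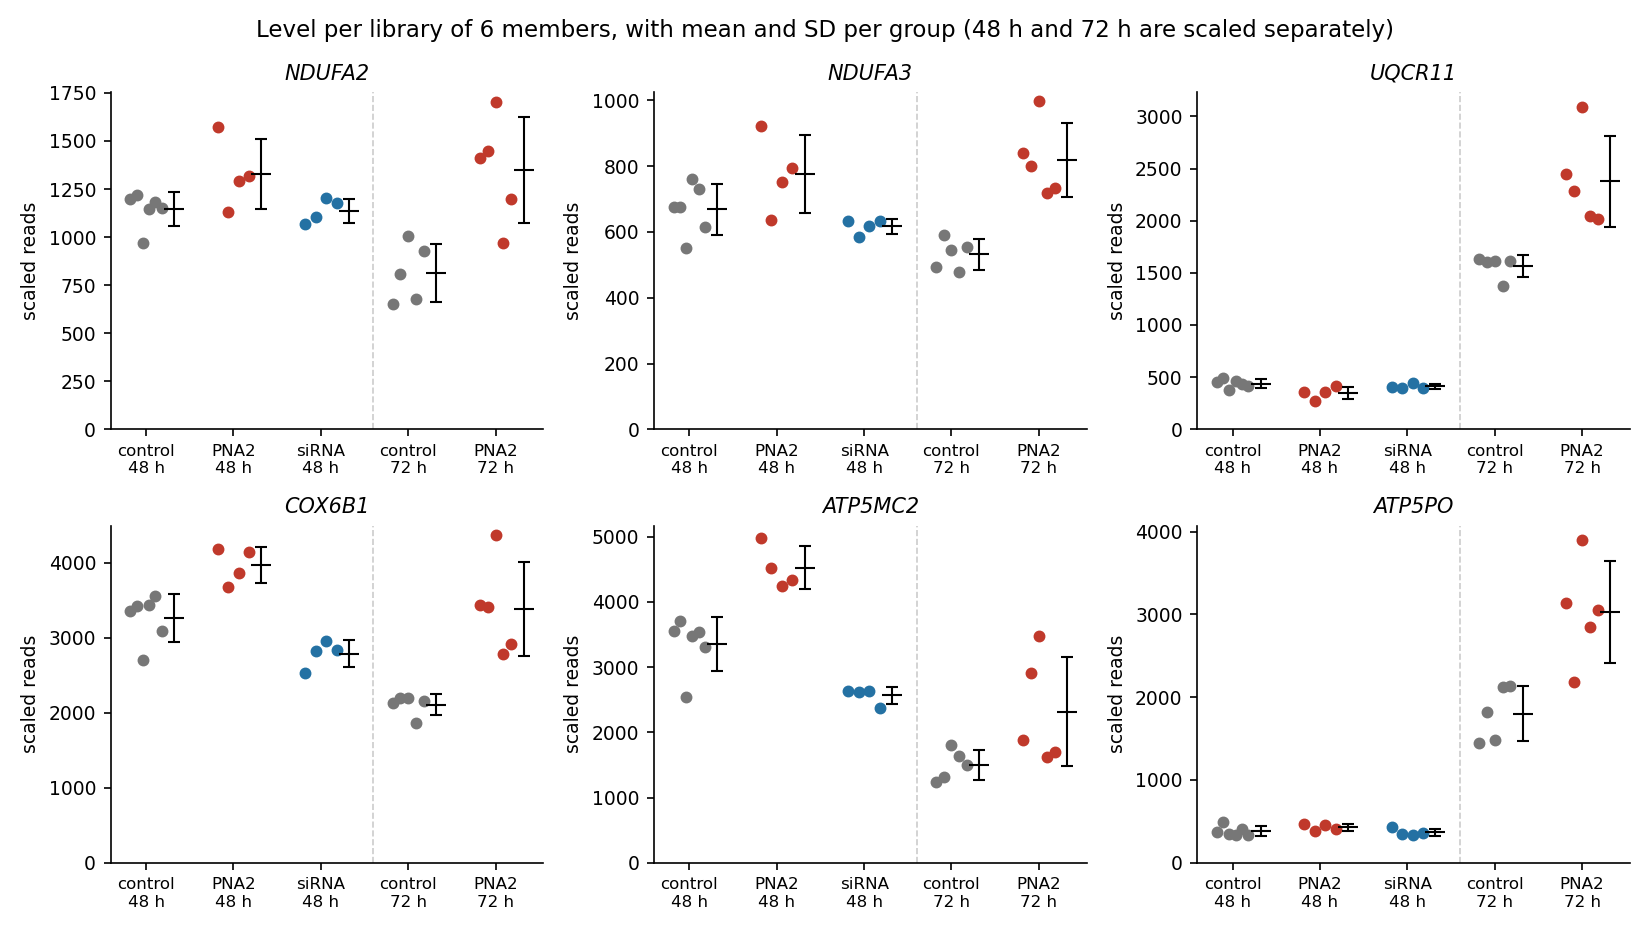
Scaled reads of 6 members in every library (vertical axis, from 0), by group (horizontal axis), with mean and SD beside the points. The dashed line parts the 48 h from the 72 h table, which are scaled separately. At 72 h NDUFA3, UQCR11, COX6B1 and ATP5PO have all PNA2 points above all controls, while UQCR11 and ATP5PO are low at 48 h in every group.

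Measured per length, the highest levels in the 72 h controls were those of COX5A (5189.6 scaled reads per kilobase of transcript), ATP5MF (5144), COX6A1 (5056) and ATP5F1A (4698). Of these 4, COX5A, ATP5MF and COX6A1 were called higher in PNA2 and ATP5F1A was not.

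Transcript length moved with the change at 72 h across all genes, and these genes are short. The median transcript length was 753 bases for the tested members and 2532.5 for all genes tested (median of the basic coding transcripts of GENCODE 29). It was 713.75 for members called higher and 811.5 for the others. Among other genes under 1000 bases 31.6% were called higher, with a median change of 0.27, and among those of 1000 bases or more 10.1%, with a median of -0.03. Members were higher in 29 of 53 (54.7%, median 0.37) under 1000 bases and in 11 of 28 (39.3%, median 0.20) at 1000 or more. With a smooth trend on transcript length taken out of every library's values, 17 of 81 members were higher and 4 lower (11.4% and 10.8% of all genes), and the median change was 0.08. With a trend on coding length in its place, 18 of 80 were higher and 3 lower (10.9% and 10.1%), with a median of 0.15. The part of length in the result was otherwise not tested. A trend on length also takes out change that short gene families share, so the 40 and the 17 are both given.

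With the transcript length trend removed, the 17 members still higher were 5 of complex I, 5 of complex III, 3 of complex IV and 4 of complex V. UQCRFS1, whose transcript is long for this set (3475 bases), gave 0.62 (adjusted p = 0.00108), UQCRC1 0.37, NDUFB11 0.45, NDUFA2 0.43, ATP5PO 0.51 and COX6B1 0.33. Calls lost in this way included NDUFA3 (0.20, adjusted p = 0.0539), COX5A (0.13), COX7A2 (0.08), SDHB (0.08), ATP5MC1 (0.05) and ATP5MC3 (0.12). The 4 called lower were NDUFA10 (-0.34), DMAC2L (-0.30), SDHC (-0.25) and ATP5PF (-0.24). Of the 40 calls, 14 were made under every one of the 22 alternatives, among them NDUFA2, NDUFB11, UQCRC1, UQCRFS1, UQCR11, COX6A1, COX6B1, COX8A and ATP5PO.

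**Figure D4:**
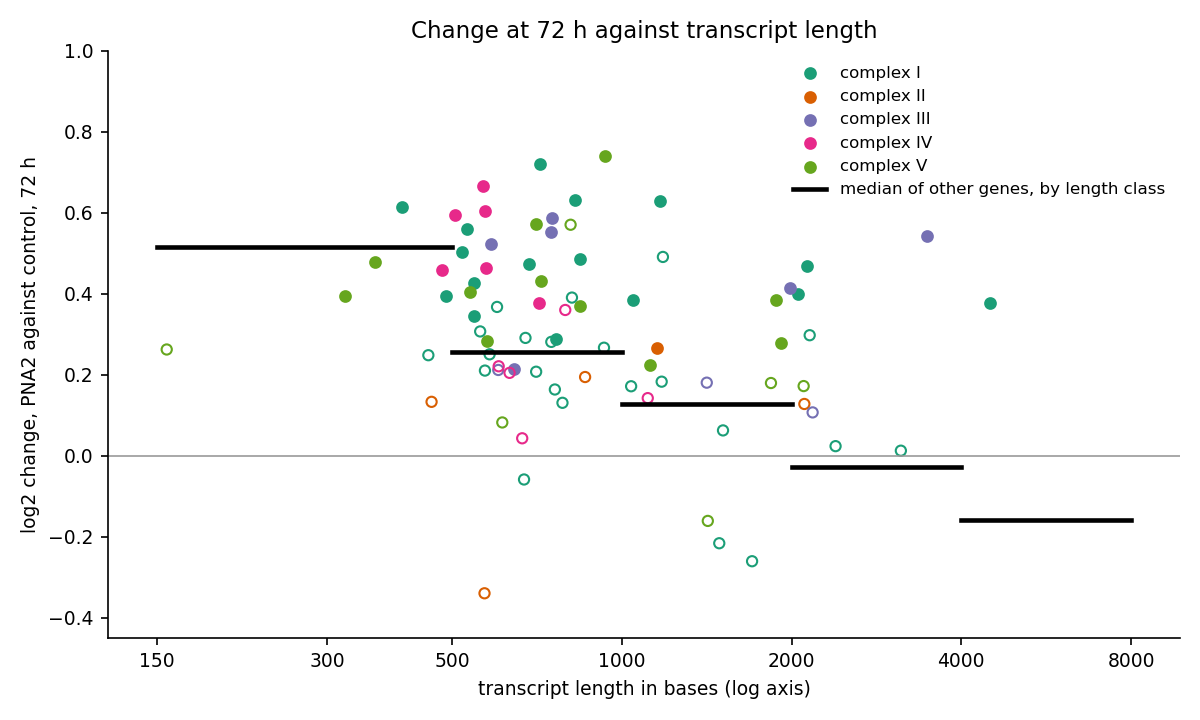
Log2 change at 72 h (vertical axis) against transcript length in bases (log horizontal axis) for 80 members (the readthrough gene ATP5MF-PTCD1 lies above the range), coloured by complex, filled where called higher. Black bars give the median of all other genes in each length class. The bars fall from 0.51 in the shortest class to -0.16 in the longest, and most members at 1000 bases or more lie above the bar of their class.

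At 48 h the libraries labelled PNA2 differed little and unevenly from control in these genes. Of 79 members tested, 10 were higher and 1 lower, against 8.11% and 8.04% of all 14136 genes (the 10 are 12.7% of the members tested). The median change was 0.07. All PNA2 libraries lay above all controls in 4 of the 79 members, near the 5.20% of all genes. They lay below all controls in 0, against 4.87%. The higher members were NDUFA4, NDUFA4L2, NDUFB2 and NDUFB11 of complex I, UQCRH of complex III, COX6B1, COX7A2 and COX7B of complex IV, and ATP5MC2 and ATP5ME of complex V. The lower one was UQCR11.

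ATP5MC2 (ENSG00000135390; chromosome 12, 53632726 to 53677408, reverse strand), a c ring gene, stood out at 48 h. It ranged from 2535 to 3706 (median 3508) in the 6 controls, stood at 4985, 4528, 4243 and 4337 in PNA2 replicates 1 to 4 and at 2635, 2624, 2632 and 2374 in siRNA replicates 1 to 4. All PNA2 libraries were above all controls, and the siRNA libraries were below every control except control replicate 3, which only siRNA replicate 4 was below. The change in PNA2 was 0.44 (SE 0.08, 95% CI 0.27 to 0.61, limma adjusted p = 0.00267) and was 0.41 when batch A was fitted alone and 0.47 for batch B. It alone of the 11 calls was made under all 27 alternatives. ATP5ME, a membrane subunit near the dimer interface of ATP synthase, ranged from 776 to 969 (median 901) in the controls and stood at 1273, 984, 1111 and 1168 in PNA2, above all controls, a rise of 0.35 (SE 0.08, adjusted p = 0.00672).

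COX6B1 ranged from 2697 to 3555 (median 3389.8) in the controls and stood at 4178, 3677, 3866 and 4143 in PNA2, with no overlap, a rise of 0.29 (SE 0.08, adjusted p = 0.0227). NDUFB11 ranged from 1281 to 1520.2 (median 1350.3) and stood at 1837, 1505, 1685 and 1582, where replicate 2 lay below the highest control, a rise of 0.27 (adjusted p = 0.0145). NDUFA4 ranged from 2512 to 2941 (median 2677) and stood at 3899, 2732, 3566 and 3453, with replicate 2 again among the controls (0.32, adjusted p = 0.0194). NDUFA4L2, at 25.8 to 50.4 (median 29.5) in the controls and 47.4, 132, 48.4 and 79.5 in PNA2, had the largest change (1.09, SE 0.27, adjusted p = 0.0135), and here replicate 2 was the highest library, with 0.73 without it. UQCR11 stood at 355, 274, 356 and 415 in PNA2 and from 379 to 489.7 (median 444) in the controls, a change of -0.34 (adjusted p = 0.0396). Its change was -0.58 in batch A and -0.09 in batch B, and with PNA2 replicate 2 left out it no longer passed (-0.21, adjusted p = 0.107).

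PNA2 replicate 2 stood apart from the other PNA2 libraries for these genes at 48 h. It also stood apart in its B cell markers, which took 0.191% of its total against 0.258% or more in the other 48 h libraries, and whether that bears on these genes was not tested. Its median difference from the control mean was -0.13, with 21 of 79 members above it, while replicates 1, 3 and 4 stood at 0.26, 0.10 and 0.11. Without replicate 2, 27 members were higher and 0 lower (8.87% and 8.69% of all genes), with a median of 0.17. This was the highest count when each library was left out in turn, and the lowest was 4. By complex 12 of 38, 0 of 4, 5 of 9, 6 of 11 and 4 of 17 were higher in complexes I to V. Within batch A, which holds replicate 2, the median was -0.03 with 4 members higher and 4 lower (5.86% and 7.62%). Within batch B it was 0.15 with 8 higher and 0 lower (6.17% and 6.38%). Control replicate 3 lay further below the control mean than PNA2 replicate 2, at -0.19 with 8 of 79 members above it. The control libraries ranged from there to 0.12 (replicate 2). The summed share of the 89 genes was 0.990% ± 0.0437 (SD, n = 6) in control and 0.998% ± 0.056 (n = 4) in PNA2.

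Some members were far lower in the 48 h table than in the 72 h table. Of 76 members with a control mean of 100 or more at 72 h, 14 had a deposited control mean at 48 h of less than 0.5 of it, with ratios from 0.00662 (NDUFV2) to 0.486 (DMAC2L), against a median ratio of 1.17 for the other 62. They included NDUFA13 (0.0379), SDHA (0.0916), ATP5PO (0.194), COX6A1 (0.237), UQCR11 (0.259) and ATP5MG (0.290). In GENCODE 29, 12 of the 14 have exons overlapped by another gene on the same strand, against 11 of the other 62. Whether reads in such overlaps were left out of the 48 h counts was not tested. Without the 14 genes, 10 of 65 members were higher at 48 h and the median was 0.07. Of the 14, 8 were called higher at 72 h. The estimates of NDUFA13, UQCR11 and SDHA at 48 h (-0.68, -0.34 and -0.33) rest on levels far below those of the 72 h table.

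The 2 times were set side by side for PNA2, each against its own controls. Called higher at both were 6 members, NDUFA4, NDUFB2, NDUFB11, COX6B1, COX7A2 and ATP5ME, which is 60.0% of the 48 h calls and 15.0% of the 72 h calls. Of all members tested, 12.7% were called higher at 48 h and 49.4% at 72 h. The estimate was positive at both times in 49 of the 79 members tested in both. Taken singly, it was positive in 52 of 79 at 48 h and 76 of 81 at 72 h. With nearly all positive at 72 h, the 49 cannot show whether the 2 times agree gene by gene. NDUFA2 went from 0.21 (not called) to 0.72, UQCRFS1 from 0.16 (adjusted p = 0.051) to 0.54 and UQCRC1 from -0.28 (adjusted p = 0.0579) to 0.41. The difference between times was not tested, because the tables were normalized separately.

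In the siRNA libraries, where MYC was lower, few members changed. Of 79 tested, 2 were higher and 6 lower, against 8.72% and 8.52% of all genes, and the median change was -0.08. The siRNA libraries lay wholly above the controls in 1 member (ATP5MG) and wholly below in 1 (NDUFA10), against 8.61% and 6.87% of all genes. All 4 siRNA libraries had a median between -0.08 and -0.06, within the range of the controls. The B cell markers moved with this group as well, at 0.315% to 0.329% of the totals in siRNA and 0.258% to 0.280% in control without overlap, with 4 of 7 called higher, and their part in the result was not tested. The 6 lower members were NDUFA10 (-0.28) and NDUFS7 (-0.22) of complex I, UQCRFS1 (-0.18) and UQCRH (-0.24) of complex III, and ATP5F1D (-0.29) and ATP5MC2 (-0.47) of complex V. The 2 higher were SDHD (0.37) and ATP5MG (0.34), and ATP5MG is among the members with low levels in the 48 h table.

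ATP5MC2, with the values given above, had the largest change, -0.47 (SE 0.09, 95% CI -0.66 to -0.28, limma adjusted p = 0.00321), or -0.45 within batch A. Of the 8 siRNA calls, its own included, 0 were made under all 25 alternatives. NDUFA10, a complex I accessory subunit, stood at 946, 997, 961 and 989 in siRNA, below all controls, which ranged from 1000 to 1266 (median 1139), with a limma adjusted p = 0.0146. SDHD, a membrane anchor of complex II, stood at 2366, 2257, 1986 and 1883 in siRNA and from 1552 to 1942 (median 1685) in the controls (adjusted p = 0.0323), and within batch A it did not pass (0.36, adjusted p = 0.0757). ATP5MG, a membrane subunit of ATP synthase, stood at 948, 935, 985 and 928, above all controls, which ranged from 726 to 849 (median 779). Its limma adjusted p was 0.0384, and it did not pass within batch A either (0.34, adjusted p = 0.0846). Its deposited control mean at 48 h was 0.290 of that at 72 h, so the estimate rests on a level far below that of the 72 h table. Within batch A 0 members were higher and 3 lower (8.97% and 8.00% of all genes). With the batches aligned on their controls 2 were higher and 18 lower (11.5% and 14.6%), with a median of -0.12. Without rescaling the median was 0.16, and the median of all genes was then 0.22.

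Set against each other at 48 h, the libraries labelled PNA2 had 16 of 79 members higher than the siRNA libraries and 2 lower (12.0% and 11.5% of all genes), with a median difference of 0.14. The groups did not overlap in 15 members higher in PNA2 and 3 lower, against 14.2% and 13.3% of all genes. The largest differences among abundant members were in ATP5MC2 (0.91, SE 0.10, adjusted p = 2.32e-05), COX6B1 (0.54, adjusted p = 0.000808), COX7A2L (0.53), a factor in supercomplex assembly, ATP5ME (0.52) and UQCRH (0.48). COX6B1 stood at 2529.8, 2821, 2959 and 2840.3 in siRNA, all below the PNA2 values above. SDHD (-0.55, limma adjusted p = 0.00405) and ATP5MG (-0.40, adjusted p = 0.0199) were lower in PNA2. ATP5MG is among the members with low levels in the 48 h table. By complex, 4 of 38, 0 of 4, 4 of 9, 5 of 11 and 3 of 17 were higher in complexes I to V. Without PNA2 replicate 2 the counts were 37 higher and 1 lower (14.6% and 13.3%), and within batch A 11 and 5 (10.3% and 12.0%).

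The subunits encoded in mitochondria, which meet these proteins in complexes I, III, IV and V, differed more. Of their 13 genes 11 were higher and 0 lower in PNA2 at 48 h (median 1.17), 0 changed either way in siRNA (median -0.17; also 0 at an unadjusted p below 0.05) and 13 were higher at 72 h (median 0.82). The ratio of the summed mitochondrial to the summed nuclear-encoded transcripts was 2.24 ± 0.503 (SD, n = 6) in control, 4.85 ± 0.422 (n = 4) in PNA2 and 2.12 ± 0.15 (n = 4) in siRNA at 48 h. At 72 h it was 4.26 ± 0.299 in control and 6.24 ± 1.21 in PNA2 (n = 5 each), with no overlap at either time. Cytoplasmic ribosomal protein genes, set beside the members as short and abundant transcripts (median length 750.5 bases), had 74 of 77 higher at 72 h (median 0.60), 65 of 76 higher and 2 lower in PNA2 at 48 h (median 0.47), and 0 higher and 67 lower in siRNA (median -0.45). Their share of the 72 h totals was 7.75% ± 0.219 in control and 10.8% ± 1.36 in PNA2 (SD, n = 5 each), and was also highest in PNA2 replicate 3.

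Assembly factors build the complexes. Of 54 tested at 72 h, 10 were higher and 5 lower, against 12.1% and 11.7% of all genes (median 0.02). For complex II 3 of 4 were higher, namely SDHAF4 (0.61), SDHAF1 (0.51, SE 0.11, limma adjusted p = 0.00649) and SDHAF3 (0.38). For complex III 0 of 6 were higher and 2 lower, BCS1L (-0.42), which inserts the Rieske protein UQCRFS1, and UQCC1 (-0.35). For complex IV 5 of 23 were higher and 2 lower, with SURF1 (0.56) and COA3 (0.53) the largest rises. For complex I 2 of 17 were higher, ECSIT (0.51) and NDUFAF3 (0.42), and 1 lower, NDUFAF6 (-0.47), and for complex V 0 of 4 changed by limma, also at an unadjusted p below 0.05. At 48 h limma called 0 of 52 higher and 5 lower in PNA2 (12 had an unadjusted p below 0.05) and 0 higher and 8 lower in siRNA (18 at the unadjusted p), against 8.11% and 8.04% of all genes in PNA2 and 8.72% and 8.52% in siRNA. BCS1L was lower in all 3 comparisons with control, by -0.30 (adjusted p = 0.021) in PNA2 and -0.62 (adjusted p = 0.000614) in siRNA at 48 h, where the controls are shared.

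Of the enzymes that feed the chain, 6 of 17 TCA cycle genes were higher at 72 h and 0 lower, against 12.1% and 11.7% of all genes here and for the next 2 lists, with IDH2 (0.55, SE 0.09, limma adjusted p = 0.00208) and MDH2 (0.44) the largest. Of the electron carriers and coenzyme Q genes 3 of 15 were higher, among them COQ5 (0.47) and ETFB (0.47). Of 10 tested regulators of the nuclear or the mitochondrial genes, 0 were higher and 3 lower at 72 h, and 3 was also the count at an unadjusted p below 0.05. By limma the 3 were PPARGC1B (-0.49, adjusted p = 0.0213), TFAM (-0.40, adjusted p = 0.0157) and PPRC1 (-0.28, adjusted p = 0.0173). TFAM packages mitochondrial DNA and takes part in its transcription. In siRNA at 48 h PPRC1 (-0.69) and TFAM (-0.51) were lower, and in PNA2 at 48 h POLRMT (-0.48), the mitochondrial RNA polymerase. NDUFAB1, an acyl carrier protein and complex I subunit outside the naming rule, rose at 72 h (0.34, adjusted p = 0.0159), while cytochrome c1 (CYC1, 0.28) and cytochrome c (CYCS, 0.23) were not called.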

How the data were processed

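RNA from 24 U2932 libraries was sequenced (NextSeq 500, TruSeq stranded total RNA and mRNA kits, per the labels' protocols). The submitters' processing notes name Trimmomatic, HISAT2 2.2.1, SAMtools 1.7, HTSeq 0.11.0, DESeq2 and GRCh38. The annotation release and the use of strand in counting are not given in the sources used here, so reads of overlapping and antisense genes may not be told apart. The deposited 48 h table (61541 genes) holds other values, namely read counts adjusted per gene and batch by the authors, with values below 0 in 5099 genes. The deposited 72 h table (19836 genes) holds a signal, read counts divided by the authors' size factor per library, from which whole reads were recovered for 100% of values within 0.01. Batches at 48 h are not in the labels: low genes tied in 25.3% to 40.6% of 6826 genes within a batch and in 0% between batches.

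Values were tested as log2(value + 1) with limma 3.58.1 (trend) in R 4.3.3 over all genes with 10 or more in at least 4 (48 h) or 5 (72 h) libraries, with Benjamini-Hochberg adjustment and a threshold of 0.05. At 48 h values below 0 were set to 0, values were divided by a TMM scale (edgeR 4.0.16), and group and batch were fitted over all 14 libraries. At 72 h group alone was fitted. DESeq2 1.42.0 and edgeR were run on recovered reads, and the fits were tested on simulated data. Lengths and positions are those of GENCODE 29, which held 89 of 89 members. Members, lists and batches were chosen with earlier results of these data known. Full values were given to a fixed list of core subunits and, in each comparison and complex, to the 2 called members with the largest change each way among those at 100 or more. Alternatives were scaling, filters, pseudocounts, batch handling, length and GC trends, and each library left out. The values of some genes are not reported here.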

Additional observations from a re-analysis of the deposited data

Results flagged for a closer look

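Of 235 groups of libraries tested, 16 had a library whose gap to its nearest neighbour was large against the group's range (Dixon's ratio). Chance flags about 1 in 20 groups. Control replicate 3 at 48 h was the outlying library for ATP5MC2 (ratio 0.665), COX5B (0.768), NDUFA2 (0.709) and SDHA (0.64). siRNA replicate 3 was so for SDHC (0.869), UQCR11 (0.902) and UQCRC1 (0.836), siRNA replicate 4 for ATP5MC2 (0.958) and PNA2 replicate 2 at 48 h for SDHD (0.871). At 72 h control replicate 4 was so for COX6B1 (0.778) and UQCR11 (0.877), control replicate 1 for COX5A (0.806), PNA2 replicate 1 for COX7A2L (0.836) and PNA2 replicate 3 for NDUFB2 (0.76). The summed share of complex IV had an outlying library in PNA2 at 48 h (0.883; replicate 1 highest) and in siRNA (0.846; replicate 2 lowest).

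In 4 members every PNA2 library lay on one side of the control mean at 48 h and on the other side at 72 h. The log2 change at 72 h minus that at 48 h was 1.31 for NDUFA13, 0.92 for UQCR11, 0.69 for UQCRC1 and 0.37 for SDHD. These differences were not tested, and NDUFA13 and UQCR11 are among the members with low levels in the 48 h table.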

How the results depend on the processing

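Over the alternatives, 772 of 880 repeats of the 40 calls at 72 h were called again, 102 were lost and 6 reversed in sign, and 2 estimates not called before were called with the other sign. The figures were 221 of 296 for PNA2 at 48 h (75 lost, 0 reversed), 106 of 200 for siRNA (92 lost, 2 reversed) and 335 of 431 for PNA2 against siRNA (96 lost, 0 reversed, and 1 estimate not called before called with the other sign). The cause of each change was not tested. Counts below that have no share of all genes, here or above, were not set against all genes. At 72 h, removing the length trend gave 17 higher and 4 lower (median 0.078), coding length 18 and 3 (0.153), and GC 2 lower. The estimate was below 0 with the length trend removed for NDUFB3 (-0.003), SDHC (-0.254), ATP5PF (-0.241), UQCRB (-0.098), ATP5PD (-0.054) and ATP5MF (-0.067), and with coding length for NDUFA1 (-0.028) and UQCRB (-0.036). Leaving out each library gave 30 to 46 higher, 0 lower and medians of 0.243 to 0.365.

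For PNA2 at 48 h, no rescaling gave 19 higher and 0 lower (median 0.267), and quantile normalization 16 and 3. The library scales were 1.02 to 1.09 in PNA2 and 0.77 to 1.01 in control. The 19 and the 0.267 therefore include that difference between libraries, which all genes share. The compared groups alone gave 3 and 0, batch A 4 and 4, and coding length 4 and 3 (5.13% of members and 8.83% of all genes higher). With no filter, batches aligned, or batch B, 0 were lower. Removing the length trend and PNA2 replicate 2 gave 17 higher (21.5% of members and 8.88% of all genes). Leaving out each library gave 4 to 27 higher, 0 to 3 lower and medians of 0.018 to 0.173, with 5, 27 and 4 higher without PNA2 replicates 1, 2 and 4. Control replicate 3 gave the 3 lower, and without control replicates 1, 2 or 4, unnumbered control 6 or PNA2 replicate 2, 0 were lower.

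For siRNA, no batch term gave 0 higher and 2 lower, no filter 0 and 2, no rescaling 0 lower (median 0.160), median ratio size factors 2 lower, the compared groups alone 21 lower, aligned batches 18 lower, batch A 0 and 3, and the length trend 3 lower. Without rescaling NDUFS7 (0.013) and UQCRFS1 (0.055) turned above 0. Leaving out each library gave 0 to 2 higher, 1 to 7 lower and medians of -0.093 to -0.02, and without unnumbered control 7 the counts were 1 and 2. Leaving out any siRNA library left 2 lower. For PNA2 against siRNA, no rescaling gave 4 higher and 1 lower, and the compared groups alone 5 lower. Aligned batches gave 27 higher (34.2% of members and 15.4% of all genes), and batch A 5 lower. The length trend gave 10 higher (12.7% and 11.3%) and coding length 9 (11.5% and 12.3%), both near the share of all genes. Length with PNA2 replicate 2 left out gave 25 higher (31.6% and 13.8%). ATP5F1A gave -0.311 under quantile normalization. Leaving out each library gave 9 to 37 higher, 1 to 3 lower and medians of 0.062 to 0.262, the extremes being without PNA2 replicates 1 and 2.

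Replicate numbers were not used as pairs in the main fits. Deviations of same-numbered libraries correlated at -0.06 to 0.23 at 48 h and -0.04 to 0.11 at 72 h. The best match had the same number for some libraries and another number for others, so these values cannot decide whether libraries were paired. With the replicate block 4 members were higher and 0 lower for PNA2 at 48 h, 1 and 1 for siRNA, 8 and 2 for PNA2 against siRNA, and 40 and 0 at 72 h. The unnumbered controls had no number and were not in that fit. The trends on coding length and GC, and length with PNA2 replicate 2 left out, were chosen after seeing the data. Members under 10 scaled reads in too many libraries were not tested, and a change in them was not detectable at this depth.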
